A study of Mus musculus with 6 samples.

Results

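The genes of the cell cycle were examined across the brain cell types of this single-cell RNA sequencing data set. The 37 genes were chosen by name from textbook roles, out of 32285 genes in the count matrix. Of these, 23 act in mitosis or are made for it (Mki67, Top2a, Cdk1, Ccnb1, Ccnb2, Ccna2, Birc5, Cenpe, Cenpf, Bub1, Bub1b, Aurka, Aurkb, Plk1, Tpx2, Ube2c, Hmmr, Kif11, Kif20b, Kif23, Nusap1, Prc1 and Cdc20) and 14 in the start and running of DNA replication (Mcm2 to Mcm7, Pcna, Rrm1, Rrm2, Tyms, Ccne1, Ccne2, Cdc6 and Gins2). A cell was called cycling when it held at least 1 UMI (unique molecular identifier, the tag of 1 captured RNA molecule) of 3 or more of the 6 genes Mki67, Top2a, Cdk1, Birc5, Ube2c and Nusap1. The other 31 genes took no part in that call.

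Cells came from the contralateral or ipsilateral cortex of male mice, 8 to 12 weeks old, in which the middle cerebral artery had been occluded permanently 1, 12 or 24 h before, a model of ischemic stroke. All mice were heterozygous RGS5::GFP animals on the C57bl/6 background, in which GFP replaces 1 allele of Rgs5. Myelin and neurons were depleted and live DAPI- cells were sorted, so dividing cells lost in dissociation or sorting were not measured. Each of the 6 groups of hemisphere and time gave 1 library, and 3 mice were used. The labels list the kit as version 3 at 1 and 24 h and as version 3.1 at 12 h, while the study's methods name the same kit for every library. Those methods give a NovaSeq sequencer for the 1 and 12 h libraries and a HiSeq for those of 24 h.

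In the count matrix the libraries carry the numbers 1 to 6, and neither the labels nor the headers tie a number to a hemisphere or a time. Measured values were not used to assign them. The cells were therefore pooled and described as 1 sample, the numbered libraries are given separately next to it, and no difference given here has a replicate check. Intervals are 95% and cover counting error only.

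The matrix held 17357 cells after the filters, 1221 to 5873 per library, with median depths of 5053 to 5660 UMIs per cell and a lowest depth of 1366. The doublet procedure marked 311 cells (1.79%), of which 0 were cycling, and 26 barcodes occurred in more than 1 library. Unsupervised clustering, from which 116 cell cycle genes were left out, gave 26 clusters. Their markers named 12 classes, and 3 clusters with 386 cells stayed without a name. Levels are given as CPM, the UMIs of a gene per 1000000 UMIs summed over a class. As a measure of free RNA, the 40769280 barcodes were searched for those with only 1 to 50 UMIs, in which the mitosis genes summed to 86.0 CPM and the replication genes to 202 CPM.

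A dividing cell makes the replication genes first. Cyclin E, encoded by Ccne1 and Ccne2, starts the DNA synthesis phase, the MCM helicase opens the DNA, PCNA clamps the polymerase, and ribonucleotide reductase (Rrm1, Rrm2) and thymidylate synthase (Tyms) supply building blocks. The mitosis genes follow, with cyclin B and CDK1 driving entry into mitosis, the kinesins and spindle proteins moving the chromosomes, and CDC20 and UBE2C ending it by marking cyclin B for destruction. In the adult rodent forebrain, progenitors of the subventricular zone and their neuroblast offspring divide throughout life, and microglia, the resident immune cells, renew slowly and can proliferate after injury.

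The 2 groups of genes are known to be switched on through different promoter elements, so their promoters were compared. Of the 37 genes, 31 matched the RefSeq promoter table for GRCm38.p6, which gives 250 bases before and 50 after the start. The cell cycle homology region, searched on both strands as TTTGAA and in its variant form TTCGAA, was found in 16 of 20 promoters of mitosis genes (80%), in 2 of 11 of replication genes (18.2%) and in 19.4% of the promoters of all 27025 genes. The CCAAT box was found in 17 of 20 (85%) and 8 of 11 (72.7%), against 37.9% of all promoters. E2F sites were searched on both strands in 4 forms. The forms were TTCCCGC, then the form TTGCCGC, then the form TTCGCGC, and lastly the form TTGGCGC, which can overlap the reverse strand of the form named before it. These sites were found in 4 of 20 (20%) and 7 of 11 (63.6%), against 9.69% of all promoters. These matches are descriptions of the letters and not of binding.

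The 150 bases before the start are shown for genes the results turn on, 5′ to 3′ on the strand of the gene, with the letters of any of the 3 motifs in capitals. Cdc20 and Ube2c, which end mitosis, and Cdk1, its kinase, all held the cell cycle homology region.
Cdc20 (chr4:118437344-118437493, minus strand): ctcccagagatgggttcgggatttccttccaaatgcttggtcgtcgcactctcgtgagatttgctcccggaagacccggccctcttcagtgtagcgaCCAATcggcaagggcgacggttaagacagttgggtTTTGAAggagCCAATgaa
Ube2c (chr2:164769779-164769928, plus strand): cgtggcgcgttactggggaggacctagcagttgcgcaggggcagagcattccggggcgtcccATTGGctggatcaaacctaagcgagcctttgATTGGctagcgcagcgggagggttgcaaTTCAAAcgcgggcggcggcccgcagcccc
Cdk1 (chr10:69352913-69353062, minus strand): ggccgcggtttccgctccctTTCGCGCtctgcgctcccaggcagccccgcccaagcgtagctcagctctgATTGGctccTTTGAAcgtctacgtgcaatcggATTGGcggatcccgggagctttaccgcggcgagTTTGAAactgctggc

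Mcm5 and Mcm6 (subunits of the helicase) and Cdc6 (which loads it) each held an E2F site in this stretch. They were among the genes that differed between libraries 4 and 6 in the non-cycling cells of a single microglia-like cluster, as given below. Pcna, which did not differ there, held a CCAAT box and none of the E2F letters. The motif and the difference did not go together for every gene. Mcm2 and Ccne1 differed and held no E2F match in the whole window, and Rrm2, whose intervals overlapped, held 1. The printed genes were picked by these results, and a link between motif and difference was not tested.
Mcm5 (chr8:75109359-75109508, plus strand): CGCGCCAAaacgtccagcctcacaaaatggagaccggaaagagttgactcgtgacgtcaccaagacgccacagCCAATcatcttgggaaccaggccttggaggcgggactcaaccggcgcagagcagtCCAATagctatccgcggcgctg
Mcm6 (chr1:128359706-128359855, minus strand): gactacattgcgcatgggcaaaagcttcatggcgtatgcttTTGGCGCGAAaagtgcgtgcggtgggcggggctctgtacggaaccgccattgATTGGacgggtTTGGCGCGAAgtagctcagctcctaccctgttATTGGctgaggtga
Cdc6 (chr11:98908001-98908150, plus strand): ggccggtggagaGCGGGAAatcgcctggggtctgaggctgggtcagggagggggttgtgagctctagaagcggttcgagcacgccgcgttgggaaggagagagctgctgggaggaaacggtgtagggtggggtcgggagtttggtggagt
Pcna (chr2:132253181-132253330, minus strand): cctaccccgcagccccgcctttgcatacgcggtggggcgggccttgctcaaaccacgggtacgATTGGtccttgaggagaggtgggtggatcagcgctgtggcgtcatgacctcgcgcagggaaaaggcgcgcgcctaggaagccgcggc

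Cycling cells were found almost entirely in 2 classes. Of 17357 cells, 72 were cycling (0.415%, 0.325 to 0.522%), of which 52 were neuroblast-like, 18 microglia-like and 2 B lymphocyte-like. The neuroblast-like class, named from Dcx, Stmn2, Tubb3, Sox11, Dlx1 and Dlx2, held 52 cycling cells among 328 (15.9%, 12.1 to 20.3%). Microglia-like cells, the most numerous class, held 18 among 8139 (0.221%, 0.131 to 0.349%), and the B lymphocyte-like class 2 of 57 (3.51%, 0.428 to 12.1%). Classes were given to whole clusters, and 4 of the 18 microglia-like cells had fewer than 3 of the 8 microglia markers. Without these 4 the microglia-like share was 0.172%.

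No cycling cell was found in the clusters of the other classes, at depths that still allow small shares. A cell of another type inside a microglia-like cluster would not be counted there. A cycling microglia-like cell of library 6 held 5 of 7 markers of monocyte-derived macrophages and 0 of 8 microglia markers. Erythroid cells had no class, since the naming used no erythroid list. The limits given here are the share that 3 cells would make, and the exact 95% bounds, drawn in the plot of shares, are somewhat wider. Among oligodendrocyte-like cells 0 of 2785 were cycling, which allows a share of up to 0.108%, and among endothelial-like cells 0 of 2747, which allows 0.109%. The pericyte-like class, with 0 of 887, allows up to 0.338%, and the astrocyte-like class, with 0 of 1166, up to 0.257%. The limits for 375 monocyte-derived macrophage-like cells (0.8%), 256 smooth muscle-like cells (1.17%) and 178 neutrophil-like cells (1.69%) were wider. The median depth was 8874 UMIs in oligodendrocyte-like, 6246 in neuroblast-like, 5152 in microglia-like, 4040 in endothelial-like and 3428 in pericyte-like cells. With each cell thinned to 1000 UMIs, 26 neuroblast-like (7.93%) and 3 microglia-like cells (0.0369%) still passed, and 0 oligodendrocyte-like cells.

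**Figure D1:**
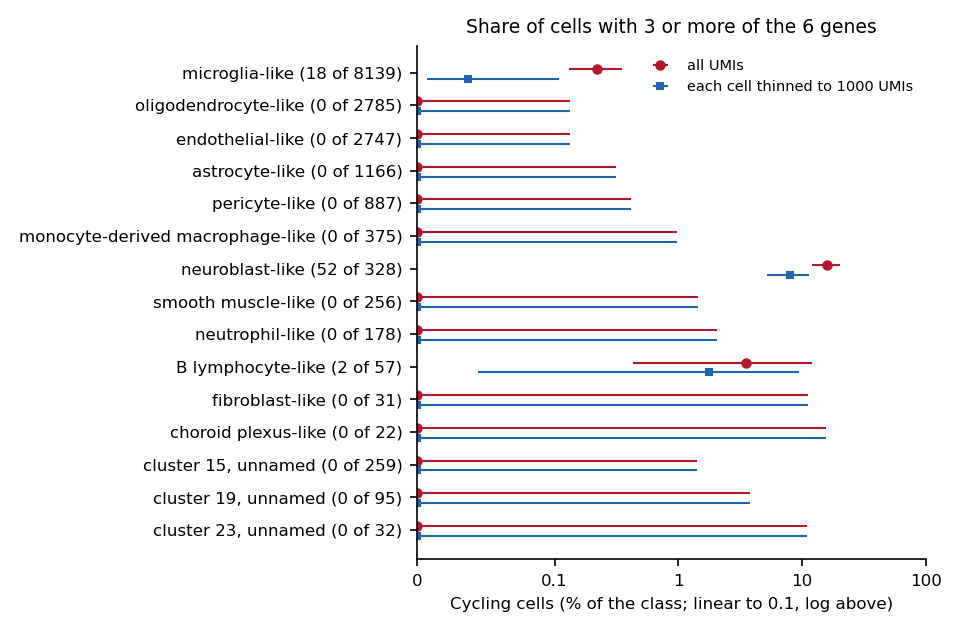
Share of cells with 3 or more of the 6 genes (x axis, percent of the class, linear to 0.1 and logarithmic above) in each class (y axis, with cycling and total cells), with 95% exact binomial intervals; red circles use all UMIs and blue squares each cell thinned to 1000 UMIs. The neuroblast-like class stands at 15.9%, and the classes with 0 cycling cells have intervals that start at 0.

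The number of detected genes separated most cycling neuroblast-like cells from a background of single UMIs, and microglia-like cells less clearly. Among all cells, 16815 had none of the 6 genes, 441 had 1 and 29 had 2. Beyond the threshold, 9 cells had 3, 11 had 4, 14 had 5 and 38 had all 6. Of the neuroblast-like cells, 6 had 2 of the genes and were not called, 3 had exactly 3, and 30 had all 6. Of the microglia-like cells, 155 had 1, 12 had 2, 6 had 3, 3 had 4, 2 had 5 and 7 had all 6, without a gap at the threshold. In oligodendrocyte-like cells, which are largely postmitotic, 3.63% had at least 1 of the 6 genes at a median of 8874 UMIs, and 2.27% of microglia-like cells did at 5152 UMIs. With each cell thinned to 1000 UMIs the shares were 0.467% and 0.590%. A single UMI of these genes was not read as expression.

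Across the libraries, cycling neuroblast-like cells occurred wherever the class was more than 1 cell. Library 1 held 1 neuroblast-like cell, which was not cycling, and library 2 held 3 cycling cells of 7. The shares in the remaining libraries were 23 of 155 in library 3 (14.8%, 9.65 to 21.4%), 7 of 36 in library 4 (19.4%, 8.19 to 36.0%), 4 of 45 in library 5 (8.89%, 2.48 to 21.2%) and 15 of 84 in library 6 (17.9%, 10.4 to 27.7%). These 4 intervals overlapped.

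Microglia-like cells showed fewer cycling cells and an uneven spread. Library 2 held 0 of 432, and libraries 1, 3, 4 and 5 held 1 of 321, 4 of 3318, 3 of 2211 and 1 of 863. Library 6 held 9 of 994 (0.905%, 0.415 to 1.71%), an interval that lies above those of library 3 (0.0329 to 0.308%) and library 4 (0.0280 to 0.396%) but overlaps those of libraries 1, 2 and 5. Most of these cells lay near the threshold, as 5 of the 8 cells of library 6 with 3 or more microglia markers held exactly 3 of the 6 genes and 0 held all 6. With each cell thinned to 1000 UMIs, 0 cycling microglia-like cells remained in library 6, 2 in library 3 and 1 in library 1. Without library 6 the share over all microglia-like cells was 0.126%. It was 0.0984% over all libraries when cell cycle genes were kept for the clustering, and 0.369% when 2 of the 6 genes were enough.

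The summed levels of the genes showed the same order of classes for mitosis and a flatter one for replication. The 23 mitosis genes summed to 2980 CPM (2913 to 3048) in neuroblast-like cells and 916 CPM (790 to 1056) in B lymphocyte-like cells, where all but 5 of the 189 UMIs came from 2 cycling cells and 134 from library 6. Without the cycling cells the B lymphocyte-like level was 27.8 CPM. As the mean of each cell's own CPM, the neuroblast-like level was 1679. In microglia-like cells they summed to 50.6, in endothelial-like cells to 43.7, in pericyte-like cells to 30.4, in oligodendrocyte-like cells to 19.9 and in astrocyte-like cells to 13.8 CPM, all below the 86.0 CPM of free RNA. With cell cycle genes kept for the clustering, the microglia-like level was 27.3 CPM. Once the 52 cycling cells were left out, the neuroblast-like level was 112 CPM, so nearly all mitosis UMIs of the class came from the cells called cycling, as the call itself uses 6 of these 23 genes.

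The 14 replication genes summed to 1072 CPM (1033 to 1114) in neuroblast-like and 596 CPM in B lymphocyte-like cells. Microglia-like cells stood at 264 CPM (259 to 269), pericyte-like at 195, endothelial-like at 187, oligodendrocyte-like at 171, astrocyte-like at 95.7 and neutrophil-like cells at 39.6 CPM. Apart from neuroblast-like, B lymphocyte-like and microglia-like cells, these named levels were below the 202 CPM of free RNA. Without the cells called cycling the neuroblast-like class remained at 559 CPM, in a group that still held cells with many replication genes.

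Of the 37 genes, 33 were highest in neuroblast-like cells, 22 of the 23 mitosis and 11 of the 14 replication genes. The other 4 were highest in the 57 B lymphocyte-like cells, namely Ccnb2 (72.7 against 40.2 CPM in neuroblast-like cells), Mcm4 (72.7 against 43.4), Cdc6 (24.2 against 16.6) and Gins2 (33.9 against 30.4). For each of these 4 the intervals of the 2 classes overlapped. Ccnb2 encodes a B-type cyclin and Gins2 a subunit of the GINS complex, which travels with the helicase.

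Levels in individual libraries are given for the neuroblast-like class, leaving out library 1 with its 1 cell. Mki67, the proliferation marker Ki-67, was at 493, 200, 221, 116 and 256 CPM in libraries 2 to 6. Top2a, the topoisomerase that untangles sister chromosomes, was at 822, 440, 372, 232 and 546 CPM. Both are among the 6 genes of the call, and both were lowest in library 5. Ccnb1, cyclin B1, was at 36.5, 106, 70.8, 46.9 and 160 CPM. Mcm6, a helicase subunit, was at 183, 89.4, 189, 81.4 and 92.5 CPM, and Rrm2, the regulated subunit of ribonucleotide reductase, at 402, 186, 260, 150 and 101 CPM. For Ccnb1 the highest library was 6, whereas for Mcm6 and Rrm2 it was library 4 or 2.

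Some of the genes were detected outside dividing cells. Pcna was at 84.0 CPM over all cells, with a UMI in 33.0% of them, and at 94.1 CPM in oligodendrocyte-like and 93.5 CPM in microglia-like cells, close to the 94.5 CPM of free RNA. Kif23, a kinesin of the spindle midzone, was at 24.4 CPM (21.7 to 27.3) in endothelial-like cells, with a UMI in 9.32% of cells. It was at 38.1 CPM (24.9 to 55.8) in neutrophil-like cells, with a UMI in 11.8%, while free RNA held 2.93 CPM and oligodendrocyte-like cells 0.198 CPM. In endothelial-like cells of libraries 1 to 6 Kif23 was at 22.3, 73.2, 16.3, 13.5, 21.2 and 33.1 CPM, so every library held it and library 2 stood highest. In neither class was a cell cycling, and Mki67 was at 0.0805 CPM in the endothelial-like cells and at 0 in the neutrophil-like cells.

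Mcm4, a further helicase subunit, was at 41.2 CPM (34.7 to 48.4) in pericyte-like cells, with a UMI in 14.4% of cells, against 15.5 CPM over all cells and 11.0 CPM in free RNA. By library it was at 18.2, 28.1, 53.8, 46.0, 26.7 and 29.6 CPM, highest in libraries 3 and 4. Mcm6 in the same cells was at 28.4 CPM, against 15.3 CPM over all cells. Mki67, Top2a, Cenpf, Bub1 and Hmmr had no UMI in the 887 pericyte-like cells. Other mitosis genes did, with 107 UMIs of mitosis genes in all (30.4 CPM, against 86.0 CPM in free RNA). Among them Kif20b was at 5.68 CPM and Bub1b at 3.12 CPM, against 3.55 and 1.75 CPM in free RNA. At least 1 of the 6 genes of the cycling call was held by 2.82% of the pericyte-like cells. Mcm3 was at 53.3 CPM (51.2 to 55.5) in microglia-like cells, with a UMI in 21.1%, against 16.8 CPM in free RNA. Libraries 1 to 5 lay between 31.7 and 45.6 CPM and library 6 at 132 CPM.

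**Figure D2:**
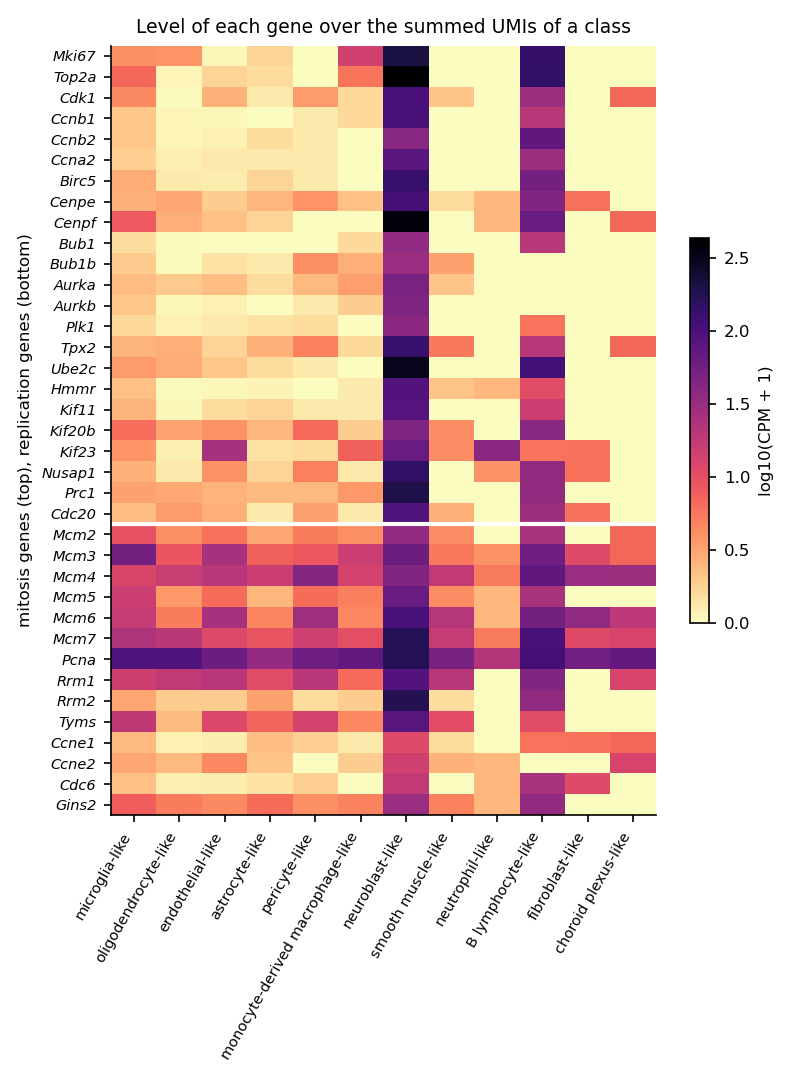
Level of each of the 37 genes (rows, mitosis genes above the white line and replication genes below) in the 12 named classes (columns) as log10(CPM + 1) over the summed UMIs of a class. The neuroblast-like column is the darkest for 33 genes, with Top2a at 436 CPM, and Pcna is dark in most columns.

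The cycling neuroblast-like cells were compared with the other neuroblast-like cells to see which of the remaining genes were raised with the 6 that made the call. The comparison takes all libraries together, 52 cells against 276. Cycling cells had 2642 to 29148 UMIs (median 11141.5) against a class median of 6246. All 31 genes outside the call were at least 2 times higher in the cycling cells. Over all genes at 5 CPM or more in the class, 8.57% of 10812 were that much higher and 18.5% were at 0.5 times or less. The median ratio was 17.0 for these 31 genes, 4.28 for the 14 replication genes and 0.897 for all genes. All 31 reached 5 CPM in the class, but some of them, such as Bub1 and Ccnb1, only through the cycling cells, and those had to differ. In the other cells alone 19 of the 31 reached 5 CPM (6 mitosis and 13 replication genes), and all 19 were at least 2 times higher in the cycling cells, against 6.39% of 10717 genes at that level, a count added after the data were seen.

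Mitosis genes were close to absent from the other neuroblast-like cells. Ccnb1 was at 394.5 against 1.60 CPM, a ratio of 246 (83.3 to 1202) that rests on 3 UMIs in the other cells. Cdc20, the activator of the ligase that ends mitosis, was at 352 against 3.20 CPM (110, 49.8 to 303). Plk1, a mitotic kinase, had 95 UMIs in cycling cells and 1 in the other cells. Cenpf, a kinetochore protein, was at 1424 against 24.6 CPM (58.0, 43.1 to 79.7), and Tpx2, a spindle assembly factor, at 496 against 6.41 CPM (77.4, 43.7 to 151). The other cells had no UMI of Bub1, a checkpoint kinase, or Aurkb, the kinase of the chromosomal passenger complex. Against the limit of 3 UMIs over the whole group (1.60 CPM), Bub1 was at least 83.0-fold and Aurkb at least 110-fold higher in the cycling cells. The smallest ratios of mitosis genes outside the call were those of Kif20b, a kinesin of cytokinesis (153 against 9.08 CPM, 16.8), and Bub1b, a checkpoint protein (95.2 against 6.41 CPM, 14.9, 7.94 to 30.3).

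Replication genes were also found in the other neuroblast-like cells, so the ratios were smaller. Of the 328 neuroblast-like cells, 67 held 5 or more of the 14 replication genes, and 46 of these were called cycling. The rest of the 67 lay among the other cells, and their part in the level there was not tested. Rrm2 was at 580 against 34.2 CPM (17.0, 13.01 to 22.5). The cyclins E stood next, with a ratio of 9.44 for Ccne1 (3.65 to 28.7) and 6.79 for Ccne2 (3.13 to 15.9). Tyms was at 219 against 34.7 CPM (6.32, 4.68 to 8.60), and Cdc6, the helicase loader, at 40.8 against 8.01 CPM (5.09, 2.62 to 10.3). The helicase subunits ranged from 4.90 for Mcm3 to 2.15 for Mcm7 (286 against 133 CPM, 1.77 to 2.61), and Pcna was at 376 against 99.9 CPM (3.77, 3.11 to 4.58). Mcm7 was thus already found in 134 of the 276 other cells, and Pcna there was near its level in free RNA. With each cell thinned to 1000 UMIs few UMIs remained, and the ratios were 0 for Ccne2, Cdc6 and Mcm2 and 0.968 for Mcm3.

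The same comparison within libraries gave the same direction for almost all genes, although the number of cells was small. No minimum level in the other cells was set within libraries, so genes absent there had to differ, and these counts are descriptions. In library 2, with 3 cycling and 4 other cells, all 30 genes with a UMI were at least 2 times higher, against 36.0% of all genes with a UMI. Of these 30 genes only Mcm6 and Pcna had a UMI in the 4 other cells, and 10 had an interval above 1. In libraries 3, 4 and 6 the counts were 30, 31 and 30 of 31, against 13.2%, 16.7% and 19.5% of all genes. In library 5, with 4 cycling cells, 27 of 31 were at least 2 times higher against 16.0% of all genes, and 2 were lower. Rrm2, for example, was 23.5 times higher in library 3 (15.6 to 36.9), 8.55 times in library 4 (4.92 to 15.8), 10.9 times in library 5 (5.84 to 21.0) and 28.1 times in library 6 (11.3 to 90.3).

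Further cell cycle genes, listed by function but with earlier results of these data known, were also higher. Over all genes at 5 CPM or more in the class, 8.57% of 10812 were at least 2 times higher and 18.5% at 0.5 times or less. Genes that reached 5 CPM only through the cycling cells, such as Kif2c with 72 UMIs against 0, had to differ. The counts that follow are therefore descriptions. Of 30 other mitosis genes 29 were at least 2 times higher, the exception being Stmn1 (1.39). Of 28 other replication genes 27 were, the exception being Orc6 (1.19), a subunit of the origin recognition complex. Among 21 regulators of the step from G1 into DNA synthesis, 13 were at least 2 times higher and 0 were at 0.5 times or less. They included Foxm1, the transcription factor of the mitosis genes (57.4 against 2.67 CPM, 21.5, 8.46 to 70.0), and E2f8, a repressing E2F factor (49.9 against 1.07 CPM, 46.7, 11.9 to 402). Ccnd2, cyclin D2, was abundant in both (3847 against 3102 CPM, 1.24, 1.18 to 1.30).

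Genes that restrain the cycle went in both directions. Of 11 brakes at 5 CPM or more, 2 were at least 2 times higher and 2 at 0.5 times or less, against 8.57% and 18.5% of all genes, so the lower count lay near that of all genes. Cdkn2d and Cdkn2c, inhibitors of CDK4 and CDK6, were higher (4.68, 3.55 to 6.22, and 3.96, 2.85 to 5.54). Btg1, an antiproliferative gene, was at 399 against 1655 CPM (0.241, 0.212 to 0.273), and was lower in each of libraries 2 to 6, with an interval that held 1 in library 2. Gadd45b, a stress gene, was lower as well (0.377, 0.174 to 0.733), but had a ratio of 1.26 when cell cycle genes were kept for the clustering. Cdkn1a, the p21 inhibitor, was at 40.8 against 41.7 CPM, with a ratio whose interval (0.608 to 1.54) held 1.

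The markers of maturation differed along with the cell cycle genes. Gsx2 and Egfr, expressed in neural progenitors, were 6.79 (3.63 to 13.4) and 4.85 (2.98 to 8.03) times higher. Stmn2 (0.380, 0.348 to 0.415) and Dcx (0.536, 0.466 to 0.615), which mark young neurons, were lower, while Dlx1 (1.13) and Dlx2 (1.14) differed little. Of the 52 cycling cells, 42 had 5 or more of the 6 neuroblast markers.

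Among genes outside the 37, those with the highest lower bound of the ratio were again genes of division. They were led by Pbk, a mitotic kinase (392 against 1.07 CPM), and included Cdca2, Aspm, Knl1, Kif2c, Ect2, Sgo2a, Ckap2l and Ska1. Of these, Pbk, Aspm, Knl1, Kif2c, Ect2 and Ckap2l belong to the 30 other mitosis genes counted above and are not separate results. Kif2c and Ska1 had no UMI in the other cells, and genes near absent there had to differ, so this ranking too is a description. The 10 with the lowest upper bound were Snhg11, Calb2, S100a9, Tac2, Ndnf, Islr2, Pcp4, Meg3, Nhlh2 and Reln, of which Calb2, Tac2 and Nhlh2 had no UMI in the cycling cells. Several of these, such as Calb2 and Reln, are known from maturing or mature neurons, and S100a9 from neutrophils. S100a9 had UMIs in 11 of the other neuroblast-like cells. Of the 328 neuroblast-like cells, 28 carried 5 or more markers of another cell type, 4 of them cycling, 1 each with markers of microglia, oligodendrocytes, endothelial cells and pericytes. Without these 28 cells the cycling share was 16.0% and 30 of the 31 genes were at least 2 times higher.

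The cycling neuroblast-like cells were themselves split by the phase of the cycle, to see whether the 37 genes changed in opposite directions. Each cell was placed by the balance of 28 other replication and 23 other mitosis genes, none of them among the 37. Cells with more UMIs of the replication list than of the mitosis list formed the replication side (26 cells) and the rest the mitosis side (26 cells). Libraries 2 to 6 gave 1, 11, 4, 2 and 8 cells to the replication side and 2, 12, 3, 2 and 7 to the mitosis side. The median depths were 11141.5 and 11992 UMIs. The list of 23 was shortened after values had been seen, so the split is a description.

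All 14 replication genes were higher on the replication side with an interval above 1, against 6.61% of all genes with a UMI. Ccne2 (73.1 against 2.88 CPM, 25.4, 4.12 to 1046) and Ccne1 (60.4 against 2.88 CPM, 21.0, 3.33 to 871.5), each with 1 UMI on the mitosis side, and Cdc6 (79.5 against 5.76 CPM, 13.8, 3.44 to 120) had the largest ratios. Mcm6 was at 442 against 49.0 CPM (9.03, 5.44 to 15.9) and Pcna at 684 against 97.9 CPM (6.98, 4.85 to 10.3). Rrm2 was at 970 against 228 CPM (4.26, 3.32 to 5.53), and Mcm7 (2.43) and Rrm1 (1.97) had the smallest ratios.

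On the other side, 22 of the 23 mitosis genes were lower in the cells of the replication side with an interval below 1, against 5.03% of all genes. Cdc20, whose promoter is printed above, had the smallest ratio (57.2 against 619 CPM, 0.0924, 0.0537 to 0.150), followed by Ube2c (235 against 1993 CPM, 0.118, 0.0916 to 0.150) and Ccnb1 (82.7 against 677 CPM, 0.122, 0.0781 to 0.184). Mki67 (0.449), Birc5, the survivin subunit of the passenger complex (0.468), Ccna2, cyclin A2 (0.497), and Top2a (1132 against 2132 CPM, 0.531) differed less, and Aurkb had an interval that held 1 (0.741, 0.501 to 1.09).

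**Figure D3:**
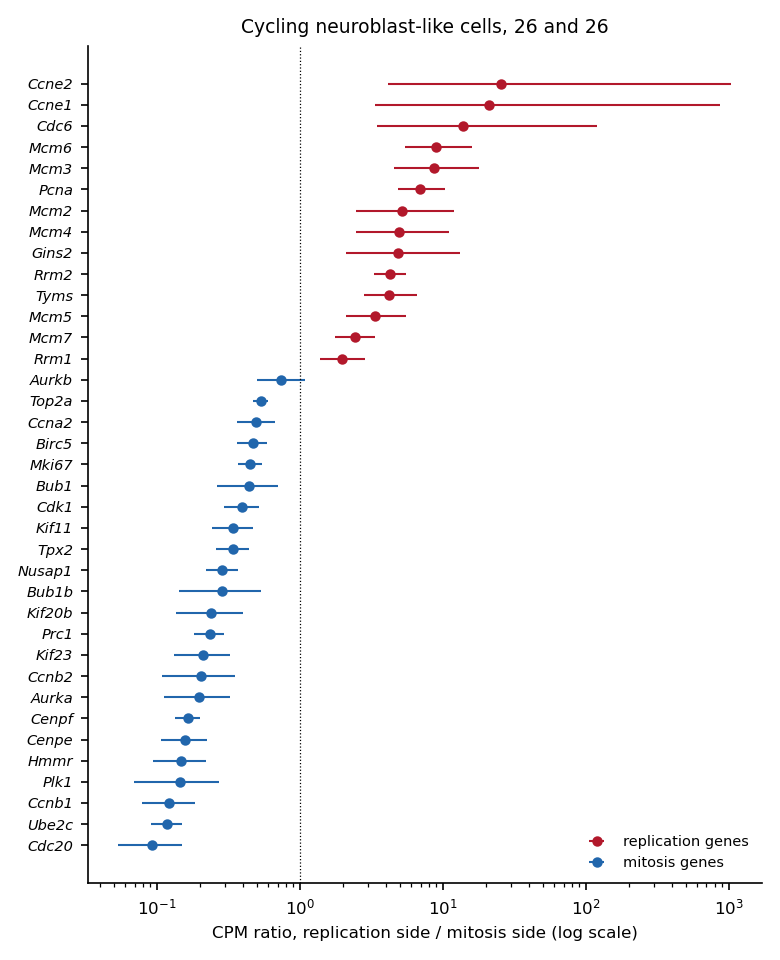
Ratio of CPM in the replication side to CPM in the mitosis side of the 52 cycling neuroblast-like cells (x axis, log scale) for each of the 37 genes (y axis), with exact conditional 95% intervals; red marks replication genes and blue mitosis genes. All 14 replication genes lie to the right of 1, and 22 of 23 mitosis genes lie to the left with intervals that do not reach 1.

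Cycling microglia-like cells were few and of more than 1 kind. The 18 cells had 5937 to 50267 UMIs. Of these, 14 had 3 or more of the 8 microglia markers, and all 14 lay in a single cluster, led by Spp1, Ccl12 and Lpl, which are genes of activated microglia. The other 4 had fewer microglia markers. Of them, 2 carried 12998 and 13554 UMIs of hemoglobin and other erythroid genes, 1 carried 98 UMIs of B lymphocyte markers, and 1 held 5 of 7 markers of monocyte-derived macrophages. Over all 18 cells, only 12 of the 31 genes outside the call reached 5 CPM in the class, and those 12 were at least 2 times higher, against 9.44% of 9481 genes. Genes that reach 5 CPM through the cycling cells had to differ, so this count is a description, and after thinning it was 5.

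The 14 cells with microglia markers were therefore set against the 1377 other cells of the same cluster that had these markers. Of the 31 genes outside the call, 29 were at least 2 times higher, against 12.5% of all genes with a UMI, and 30 had an interval above 1. No minimum level in the other cells was set here. Genes nearly absent there, such as Ccna2 (1 UMI) and Ccnb2 (3 UMIs), had to differ, so this count too is a description. Cenpf was at 397 against 2.56 CPM (155, 95.8 to 257), Tyms at 177 against 22.2 CPM (8.00, 5.07 to 12.1) and Mcm5 at 234 against 44.9 CPM (5.21, 3.54 to 7.43). Mcm6 had a ratio of 1.93 with an interval that held 1 (0.954 to 3.48). Markers of microglia were held by both sides, with Csf1r, the receptor for colony stimulating factor 1, at 1681 against 1640 CPM (1.03, 0.898 to 1.17) and P2ry12 at 404 against 487 CPM (0.830, 0.628 to 1.08).

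The 14 cells differed between libraries in which genes they held. The 8 cells of library 6 had 7 to 30 UMIs of mitosis genes (median 12) and 16 to 59 of replication genes (median 24), and 7 of the 8 had more replication than mitosis UMIs. The cell of library 1 had 171 and 11, the 3 cells of library 3 had 49 to 73 and 8 to 15, and the 2 cells of library 4 had 47 to 71 and 1 to 2. The cells of library 6 thus lay mostly on the replication side, and those of libraries 1, 3 and 4 on the mitosis side. In library 6 Ccne2 had 27 UMIs in these cells (294 CPM, against 9.78 CPM in other cells of its cluster and library) and Ccnb1, Ccnb2 and Aurka had none. In the 6 cells of the other libraries Ccnb1 had 22 UMIs (446.5 CPM), and Mcm2, Mcm6, Ccne2 and Gins2 had none. The 2 cells of library 4 also carried 125 and 243 UMIs of erythroid genes.

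**Figure D4:**
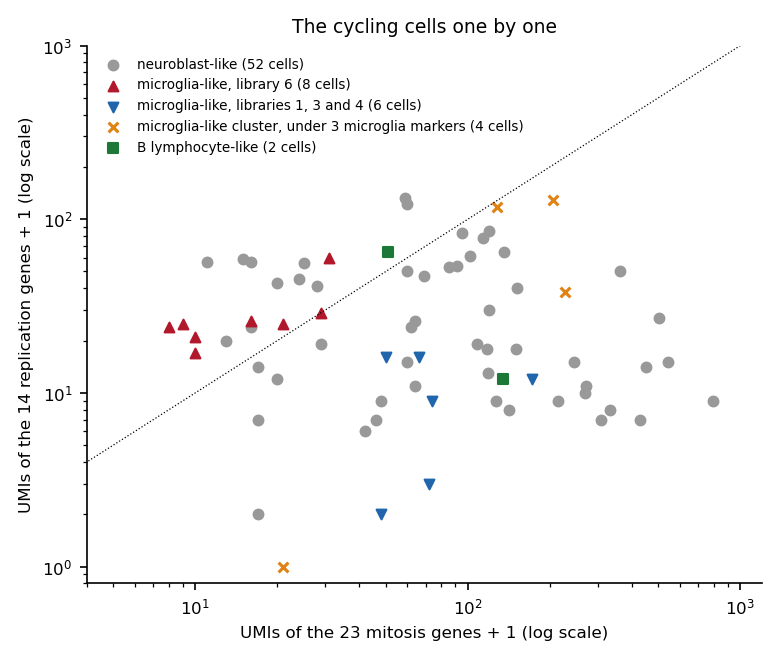
Each of the 72 cycling cells by its UMIs of the 23 mitosis genes (x axis) and of the 14 replication genes (y axis), both plus 1 on log scales, with the dotted line at equal counts; color and shape give the class and library. The 8 microglia-like cells of library 6 lie at few mitosis UMIs (7 to 30) and mostly above the line, while those of libraries 1, 3 and 4 lie below it.

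Other genes of these cells depended on the library as well. Cdkn1a was at 1383 against 340 CPM over all 14 cells (4.07, 3.50 to 4.70), but at 403 against 380 CPM (1.06, 0.745 to 1.47) in library 6 and 10.3 times higher (8.72 to 12.2) without it. Apoe, a lipid carrier of activated microglia, was 4.99 times higher over all, 0.543 times (0.357 to 0.793) in library 6 and 12.1 times without it. Ratios over all and without library 6 compare unlike mixes of libraries. In the cells of this cluster not called cycling, Apoe was at 3868, 6496 and 467 CPM in libraries 1, 3 and 4. These were 2, 31 and 840 cells, and the part of this mix in the Apoe ratios was not tested. Spp1, osteopontin, was lower in every case (0.251 over all, 0.114 in library 6 and 0.520 without it). In the cells not called cycling, Spp1 had a UMI in only 15.95% of those of library 4 and 21.2% of those of library 6. Its ratios over so few cycling cells can therefore turn on very few cells, which a counting interval does not cover. E2f1, an activating E2F factor, was higher in every case (8.31, 4.57 and 51.0), the last on 3 UMIs in the cycling cells (8.51 to 223).

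The cluster led by Spp1, Ccl12 and Lpl was then examined without its cycling cells, since replication genes were raised there beyond them. It held 1491 cells, 18.3% of the microglia-like cells, with 3, 7, 34, 843, 14 and 590 in libraries 1 to 6, so 96.1% lay in libraries 4 and 6. In the cells not called cycling, the 14 replication genes summed to 260 CPM (248 to 274) in library 4 and to 749 CPM (723 to 774) in library 6. In the few cells of libraries 2, 3 and 5 they summed to 391, 214 and 388 CPM, and the 2 such cells of library 1 had none. The mitosis genes summed to 11.4 CPM in library 4 and 59.8 CPM in library 6, both below free RNA.

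The difference between libraries 4 and 6 lay in most replication genes. Of the 14 genes, 11 had an interval in library 6 that lay above that of library 4, against 9.47% of 16264 genes with a UMI, and 0 lay below, against 9.99% of those genes. Mcm5 was at 7.57 CPM (5.52 to 10.1) in the 840 cells of library 4 and 91.3 CPM (82.7 to 101) in the 581 cells of library 6, with a UMI in 4.88% and 38.9% of cells. Mcm7 was at 10.6 and 108 CPM, Mcm6 at 13.1 and 74.6, Mcm2 at 8.74 and 45.3, Mcm3 at 44.2 and 157, and Mcm4 at 12.6 and 35.7 CPM. Ccne2 was at 0.672 and 9.38 CPM, Ccne1 at 0.672 and 6.70, Cdc6 at 0.336 and 9.16, Gins2 at 6.39 and 26.1 and Rrm1 at 11.8 and 30.4 CPM.

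The intervals of the other 3 replication genes overlapped. Pcna was at 124 CPM (116 to 134) in library 4 and 128 CPM (118 to 139) in library 6, Tyms at 18.7 and 24.8 CPM and Rrm2 at 0.672 and 2.46 CPM. Of the mitosis genes, 7 of 23 lay higher in library 6, among them Top2a (0.672 and 13.4 CPM) and Mki67 (0.336 and 3.13 CPM), and 0 lower.

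Further replication genes had the same direction, as all 28 of the other list lay higher in library 6. They included Lig1, the ligase that joins Okazaki fragments (6.22 and 82.8 CPM), Gmnn, the inhibitor of helicase loading (3.03 and 32.8 CPM), and Hells, a chromatin remodeler (4.04 and 50.7 CPM). Of the 21 G1 regulators 6 were higher and 4 lower, against the same 9.47% and 9.99% of all genes, with E2f1 at 1.18 and 27.5 CPM, Ccnd1, cyclin D1, at 196 and 142 CPM, and Myc, a growth-promoting transcription factor, at 175 and 51.4 CPM. Of the 13 brakes 2 were higher and 4 lower, with Cdkn1a at 348 (333 to 363) and 387 CPM (369 to 406) and Btg2 at 717 and 495 CPM. Of the genes that lead the cluster, Spp1 was at 1941 and 2076 CPM and Lpl at 943 and 938 CPM in libraries 4 and 6. The chemokines Ccl3, at 3430 and 2318 CPM, and Ccl4, at 9927 and 3418 CPM, were lower in library 6.

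**Figure D5:**
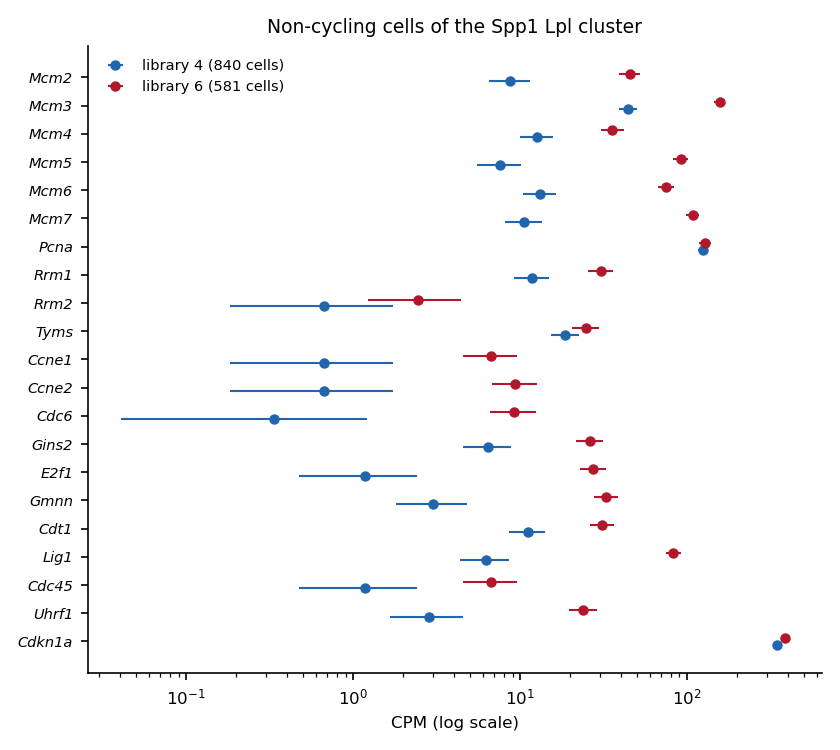
Level (x axis, CPM on a log scale, with exact Poisson 95% intervals) of the 14 replication genes, 6 further replication or E2F genes and Cdkn1a (y axis) in the cells of the Spp1, Ccl12 and Lpl cluster that were not cycling, in library 4 (blue, 840 cells) and library 6 (red, 581 cells). The red intervals lie to the right of the blue ones for all genes shown but Pcna, Rrm2 and Tyms, whose intervals overlap.

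The raised level was spread over many cells. In the whole cluster, 193 of 590 cells of library 6 held 5 or more of the 14 replication genes (32.7%, 28.9 to 36.7%), against 17 of 843 in library 4 (2.02%, 1.18 to 3.21%). In libraries 1, 2, 3 and 5 these cells numbered 0 of 3, 0 of 7, 3 of 34 and 2 of 14. Of the 193 cells, 144 had none of the 6 genes of the cycling call and 9 were cycling. Median depths were 7077 UMIs in library 6 and 6557 in library 4, and 9025 in the 193 cells. With each cell thinned to 1000 UMIs, 23 cells of library 6 (3.90%) and 1 of library 4 (0.119%) held 3 or more of the genes.

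The other microglia-like clusters of library 6 held few such cells, with 2 of 127, 2 of 120 and 2 of 150 in the 3 most numerous of them, and endothelial-like cells of library 6 held 3 of 639. Library 6 was also the highest library in free RNA for the replication genes (290 CPM, against 167 to 236 in the others). Over whole classes, astrocyte-like cells were at 147 CPM in library 6 and 73.0 to 103 in the others, endothelial-like cells at 238 and 117 to 196, while oligodendrocyte-like cells, at 182 CPM, lay within the range of the others (132 to 201), as did pericyte-like cells (205 within 177 to 219). Microglia-like cells were at 641 CPM in library 6 and 146 to 231 in the others. The part of free RNA in these values was not tested. Neither labels nor headers tie library 6 to a hemisphere or a time. The difference between libraries 4 and 6 therefore cannot be told apart from one between sequencing runs or instruments.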

How the data were processed

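The values the authors deposited are raw UMI counts for every gene and barcode, unfiltered, from 6 libraries of sorted mouse brain cells. The matrix header names Cell Ranger 5.0.1, and the submitters' processing notes name Cell Ranger and the build mm10. By the study's methods the libraries were joined with the aggr step, which equalizes depth, so the counts can be below those sequenced. Fewer counts per cell lower the number of cells that reach 3 of the 6 genes.

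A barcode was kept as a cell when it reached 0.1 of the 99th percentile of UMIs among the 3000 deepest barcodes of its library, had 200 or more features and no more than 10% of its counts from mitochondrial genes. Log-normalization used a scale of 10000, and 2000 variable genes, 30 components, 20 neighbours and Leiden clustering at resolution 0.8 (seed 1) were used, without 116 cell cycle and 8 hemoglobin genes. Doublets were called per library by the Scrublet procedure, written anew (2 simulated per cell, expected rate 6%), and kept. Clusters were named from 20 marker lists when at least 3 markers were raised 2 times. The omission of hemoglobin genes, the naming without an erythroid list and the comparison within neuroblast-like cells were decided after seeing the data. The members and gene lists were chosen with earlier results of these data known.

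Named were all 37 members, the lists' genes as counts, and the 10 other genes with the highest lower and the 10 with the lowest upper bound of the ratio, except for items not reported here. Shares carry Clopper-Pearson, levels exact Poisson and ratios exact conditional intervals, and with unmapped libraries no test across groups was made. Genes at 5 CPM or more in a class entered the comparison of cycling with other cells of the class. Scripts were tested on simulated data. Python 3.11.15, numpy 2.4.6, pandas 2.3.3, scipy 1.17.1, scikit-learn 1.9.0, igraph 0.11.9, leidenalg 0.10.2, skimage 0.26.0 and matplotlib 3.10.9 were used. Alternatives changed the cell call, doublets, resolution, the clustering genes, the number of genes that make a cycling cell, depth, the level measure and the minimum CPM, and left out each library in turn.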

Additional observations from a re-analysis of the deposited data

Results flagged for a closer look

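A signal of the 37 genes appeared outside the cells, as their summed level in barcodes with 1 to 50 UMIs was 288 CPM, with the mitosis genes between 32.5 and 153 CPM and the replication genes between 167 and 290 CPM in the 6 libraries, and its source was not tested.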

How the results depend on the processing

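No paired analysis was possible because the libraries carry no group and no replicate number. Of 131 alternative values for the 9 main results, 93 stayed within the counting interval or 1.5 times the count. These results are shares, levels and counts, which have no direction that could change. Of 944 alternative values for single genes, 13 lay on the other side of 1 from a main interval that excluded 1. All alternatives for neuroblast-like cells, and those on marker-poor or mixed cells, were chosen after seeing the data. The share of cycling cells was 0.582% of all cells and 0.369% of microglia-like cells with 2 of the 6 genes, and 0.173%, 0.0369% and, in neuroblast-like cells, 7.93% with each cell thinned. With cell cycle genes kept for clustering the microglia-like share was 0.0984%, the mitosis genes were at 27.3 CPM in microglia-like and 3257 CPM in neuroblast-like cells, and the replication genes at 257 and 1165 CPM. With the feature and mitochondrial limits alone (19864 barcodes), microglia-like cells had 41.0 (mitosis) and 259 CPM (replication). As means of each cell's own CPM, the mitosis genes were at 34.7 and 1679 CPM and the replication genes at 231 and 810 CPM, in that order of classes. Without cycling cells of under 3 microglia markers the microglia-like levels were 38.0 and 258.7 CPM. The neuroblast-like mitosis level was 3084 CPM without doublets and 3244 CPM without cells with markers of another type. Of the genes outside the call, 31 were at least 2 times higher in cycling microglia-like cells over all genes with a UMI, 3 at 20 CPM or more and 5 after thinning. In neuroblast-like cells 19 of 19 were, at 5 CPM or more in the other cells alone. Leaving out 1 library at a time gave shares of 0.322 to 0.464% (all) and 0.126 to 0.290% (microglia-like), both lowest without library 6, mitosis levels of 44.3 to 60.1 and 2692 to 3210 CPM, and replication levels of 202 to 313 CPM (lowest without library 6) and 992.5 to 1176 CPM in microglia-like and neuroblast-like cells. Thinning left ratios of 0 for Gins2, Kif20b, Mcm2, Mcm5, Mcm6, Mcm7 and Rrm1 in microglia-like cells, of 0 for Ccne2, Cdc6 and Mcm2 and of 0.968 for Mcm3 in neuroblast-like cells, where few UMIs remained. With cell cycle genes kept, Btg2 (1.23) and Gadd45b (1.26) turned above 1 in neuroblast-like cells. The share and ratios of cycling microglia-like cells rest on 18 cells.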
